A study of Mus with 8 samples.

Results

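Peroxiredoxins, catalase and superoxide dismutases are the enzymes that dispose of superoxide and hydrogen peroxide. They were read here in B16F10 cells, an established mouse melanoma line that makes melanin. The set held 10 genes out of 22206 transcript clusters, which are the array's units and stand for a gene in most cases. It comprised the peroxiredoxins Prdx1 to Prdx6, the peroxiredoxin-like gene Fam213a (Prxl2a in RefSeq), the catalase gene Cat, and the superoxide dismutase genes Sod1 and Sod2. Each member matched 1 transcript cluster by its symbol. Fam213a was chosen by its higher signal in these same arrays, and the other 9 by their enzyme family, with earlier results of these data known. The difference between Butyroside D and medium is therefore given as a description for every member. Calls of members by limma are given beside those of all transcript clusters and are not taken as evidence about the members.

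There were 4 arrays of cells given 2 µM Butyroside D for 48 h and 4 arrays of cells kept 48 h in medium without it, all on the Mouse Clariom S array. The treatment note attached to the medium samples also mentions 0.2 µM of the compound, while their titles give control only. The labels do not say whether arrays came from separate cultures, so any spread between them may be technical. RNA was taken from whole cultures, so a change in the share of cells expressing a gene and a change in the level per cell cannot be told apart.

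Superoxide, which leaks from the respiratory chain and is made by NADPH oxidases, is turned into hydrogen peroxide by superoxide dismutases. Peroxiredoxins then reduce the peroxide with a reactive cysteine that thioredoxin restores in most of them, while catalase breaks it down in peroxisomes with no such donor. Melanin synthesis itself produces hydrogen peroxide and quinones, so pigment cells handle these oxidants during normal work.

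The labelled cell type was seen in the arrays. The 7 melanocyte markers had log2 signals between 12.98 and 19.31 in all 8 arrays, and 0 of 6 keratinocyte and 0 of 6 leukocyte markers had a mean above the background limit. That limit was 5.17, the highest median of the 23 background probe sets in any array. Of the other markers, 1 of 5 measured fibroblast genes and 2 of 6 endothelial genes had a mean above it, with 6.10 as the highest signal of either list in any array. Median log2 signals of the arrays were 5.30 to 5.44. The arrays came in 4 close pairs: arrays 1 and 2 of each group resembled each other, and so did arrays 3 and 4, with correlations of 0.997 to 0.998 across transcript clusters against 0.986 to 0.993 between pairs. A value with n = 4 thus rests on 2 pairs of near-repeats. Butyroside D arrays 1 and 2 reached at most 0.988 with any array outside their pair. Butyroside D arrays 3 and 4 reached 0.993 outside theirs, with medium arrays. By this measure they were closer to medium arrays than to Butyroside D arrays 1 and 2.

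Fam213a was the member with the largest array difference. Its protein is a thioredoxin-fold relative of the peroxiredoxins. The log2 signal of its transcript cluster (TC1400001785.mm.2) was 11.31, 11.41, 10.94 and 11.05 in Butyroside D arrays 1 to 4, against 10.12, 10.12, 10.12 and 10.16 in medium arrays 1 to 4. All 4 Butyroside D arrays lay above all 4 medium arrays, and the medium arrays hardly differed from each other. The means were 11.18 ± 0.22 with Butyroside D and 10.13 ± 0.02 in medium (SD, n = 4 each), a difference of 1.05 ± 0.14 on the log2 scale (SE), or 2.07-fold. Both Butyroside D pairs showed it, by 1.23 in arrays 1 and 2 and by 0.86 in arrays 3 and 4, each against the mean of the medium arrays.

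Fam213a was the 1 member of 10 with an adjusted p under 0.05 in limma, where 26 of all 22206 transcript clusters, or 0.117%, were called. Since this very contrast chose it, the count says nothing further about the family. The call was lost when any 1 of the 8 arrays was left out, when either medium pair was left out, with the replicate number as a block, and in both fits that took account of the close pairs. It held when either Butyroside D pair was left out, in fits that take near-repeat arrays as independent. Those fits called 881 of all transcript clusters without Butyroside D arrays 1 and 2, and 5502 without Butyroside D arrays 3 and 4. The difference itself stayed between 0.97 and 1.13 without any 1 array.

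**Figure D1:**
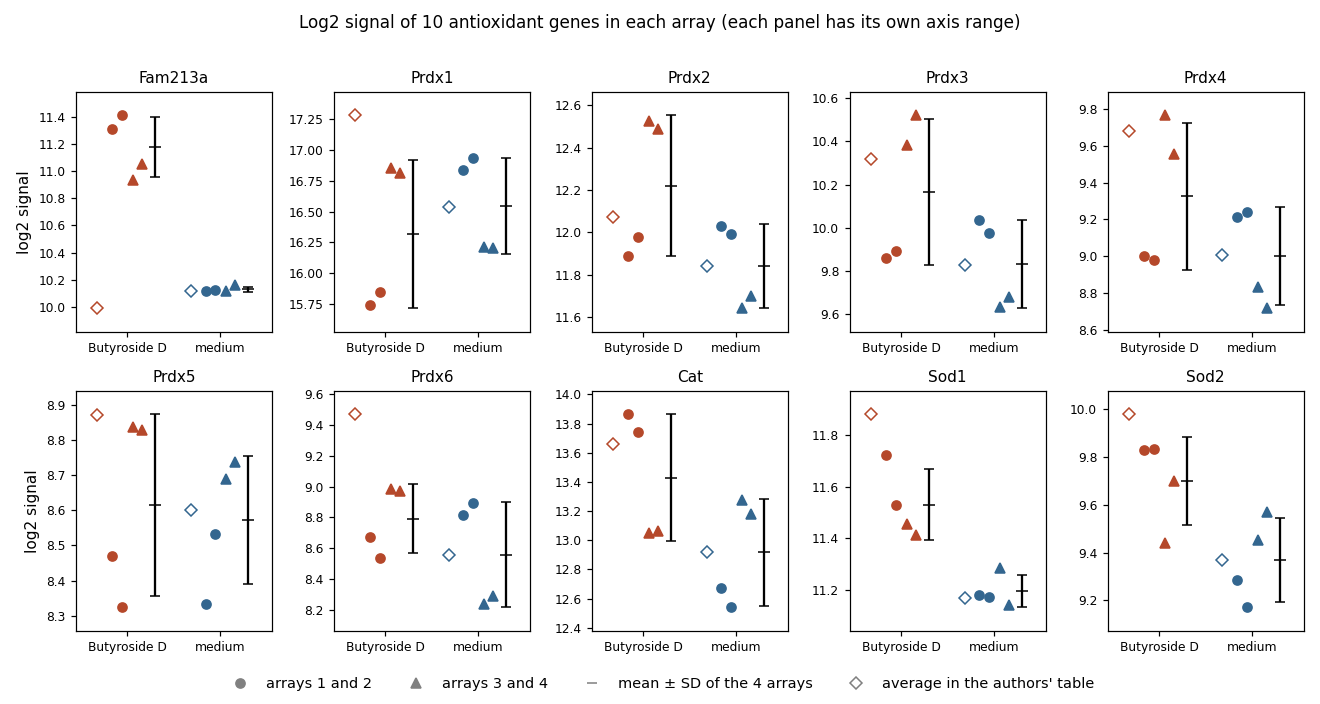
Log2 signal (vertical axis, with its own range in each panel) of the 10 genes in the 4 Butyroside D arrays, left, and the 4 medium arrays, right. Circles are arrays 1 and 2, triangles arrays 3 and 4, black bars the mean ± SD of the 4 arrays, and open diamonds the group average in the authors' deposited table. Fam213a and Sod1 show no overlap between the groups, while Prdx1 to Prdx6, Cat and Sod2 split by pair within both groups.

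The superoxide dismutases had smaller differences. Sod1, the copper and zinc enzyme of the cytosol, read 11.72, 11.53, 11.45 and 11.41 in Butyroside D arrays 1 to 4, against 11.18, 11.17, 11.28 and 11.14 in medium arrays 1 to 4. Its groups did not overlap either, and the difference was 0.34 ± 0.12 (log2, SE, n = 4 per group). Sod2, the manganese enzyme of the mitochondrial matrix, read 9.83, 9.83, 9.44 and 9.70 in Butyroside D arrays 1 to 4, against 9.28, 9.17, 9.45 and 9.57 in medium arrays 1 to 4. Here Butyroside D array 3 was lower than medium arrays 3 and 4, so the groups overlapped, with a difference of 0.33 ± 0.15 (log2, SE, n = 4 per group). Fam213a, which was chosen by its higher signal, and Sod1 were the 2 of 10 members without overlap between groups, a state found in 12.9% of all transcript clusters.

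Catalase differed more between pairs than between groups. Cat read 13.86, 13.74, 13.05 and 13.06 in Butyroside D arrays 1 to 4, against 12.67, 12.54, 13.28 and 13.18 in medium arrays 1 to 4. Butyroside D arrays 1 and 2 were the highest of the 8, while Butyroside D arrays 3 and 4 lay between the 2 medium pairs. The difference of the group means was 0.51 ± 0.24 (log2, SE, n = 4 per group). It was 0.89 for Butyroside D arrays 1 and 2 alone and 0.14 for arrays 3 and 4 alone, each against the mean of the 4 medium arrays.

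The typical 2-Cys peroxiredoxins, which work as dimers that form a disulfide between their subunits, showed the opposite division of the pairs. Prdx1, an abundant cytosolic form, read 15.75, 15.85, 16.86 and 16.81 in Butyroside D arrays 1 to 4, against 16.83, 16.93, 16.21 and 16.21 in medium arrays 1 to 4. Butyroside D arrays 1 and 2 were the lowest of all, and Butyroside D arrays 3 and 4 were close to medium arrays 1 and 2. Prdx1 was the only member with a lower group mean with Butyroside D, at -0.23 ± 0.30 (log2, SE, n = 4 per group). Its sign turned when Butyroside D arrays 1 and 2 were left out (0.29) or when medium arrays 1 and 2 were (0.11).

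Prdx2, also cytosolic, read 11.89, 11.98, 12.53 and 12.49 in Butyroside D arrays 1 to 4, against 12.03, 11.99, 11.64 and 11.70 in medium arrays 1 to 4. Prdx3, the mitochondrial form, read 9.86, 9.90, 10.38 and 10.52 in Butyroside D arrays 1 to 4, against 10.04, 9.98, 9.63 and 9.68 in medium arrays 1 to 4. Prdx4, the form of the endoplasmic reticulum, read 9.00, 8.98, 9.77 and 9.56 in Butyroside D arrays 1 to 4, against 9.21, 9.24, 8.83 and 8.72 in medium arrays 1 to 4. In each of these 3 genes Butyroside D arrays 3 and 4 were the highest of the 8, and arrays 1 and 2 lay between the medium pairs. The group differences were 0.38 ± 0.18 for Prdx2, 0.33 ± 0.19 for Prdx3 and 0.32 ± 0.21 for Prdx4 (log2, SE, n = 4 per group). Prdx4 was at -0.01 when Butyroside D arrays 3 and 4 were left out.

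Prdx5 is an atypical 2-Cys enzyme of mitochondria, peroxisomes and cytosol, and Prdx6 is the 1-Cys enzyme, which is reduced through glutathione and also has phospholipase activity. Prdx5 read 8.47, 8.32, 8.84 and 8.83 in Butyroside D arrays 1 to 4, against 8.33, 8.53, 8.69 and 8.74 in medium arrays 1 to 4. Prdx6 read 8.68, 8.54, 8.99 and 8.97 in Butyroside D arrays 1 to 4, against 8.82, 8.89, 8.24 and 8.29 in medium arrays 1 to 4. Both overlapped between groups, and again Butyroside D arrays 3 and 4 were the highest. The group differences were 0.04 ± 0.16 for Prdx5 and 0.23 ± 0.19 for Prdx6 (log2, SE, n = 4 per group). The sign of Prdx5 turned under several single omissions, and that of Prdx6 without medium arrays 3 and 4 (-0.06). Prdx6b, a Prdx6-related gene picked out after its values were seen, had means of 4.80 with Butyroside D and 4.96 in medium, both below the background limit.

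Set side by side, the 6 peroxiredoxins and the other 4 genes split the Butyroside D pairs in opposite ways. Arrays 1 and 2 minus arrays 3 and 4 came to -1.03 for Prdx1, -0.57 for Prdx2, -0.58 for Prdx3, -0.67 for Prdx4, -0.44 for Prdx5 and -0.37 for Prdx6 on the log2 scale. The same difference was positive for Cat (0.75), Fam213a (0.37), Sod2 (0.26) and Sod1 (0.19). Of all transcript clusters, 55.2% were higher in Butyroside D arrays 1 and 2 than in arrays 3 and 4, and 4 of 10 members were. The median size of this gap was 0.51 over the members and 0.35 over all transcript clusters. The 2 arrays within any pair differed by at most 0.26 in every member.

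The medium pairs differed too, by a median of 0.35 over the members and 0.26 over all transcript clusters. Medium arrays 1 and 2 minus arrays 3 and 4 were at 0.67 for Prdx1, 0.34 for Prdx2, 0.35 for Prdx3, 0.45 for Prdx4 and 0.59 for Prdx6, but at -0.62 for Cat and -0.28 for Sod2 and Prdx5. From the highest to the lowest pair mean, Prdx1 ran from medium arrays 1 and 2 (16.88) through Butyroside D arrays 3 and 4 (16.83) and medium arrays 3 and 4 (16.21) to Butyroside D arrays 1 and 2 (15.80). Cat had exactly the reverse order, with 13.80, 13.23, 13.05 and 12.60 from Butyroside D arrays 1 and 2 down to medium arrays 1 and 2. Fam213a and Sod1 were the members whose medium pairs differed by under 0.04. Background medians of the arrays differed between the Butyroside D pairs, at 5.17 and 5.07 in arrays 1 and 2 and 4.70 and 4.69 in arrays 3 and 4. The background medians of the medium pairs were close, at 4.86 and 4.83 in arrays 1 and 2 and 4.90 and 4.95 in arrays 3 and 4. Their part in these differences was not tested.

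**Figure D2:**
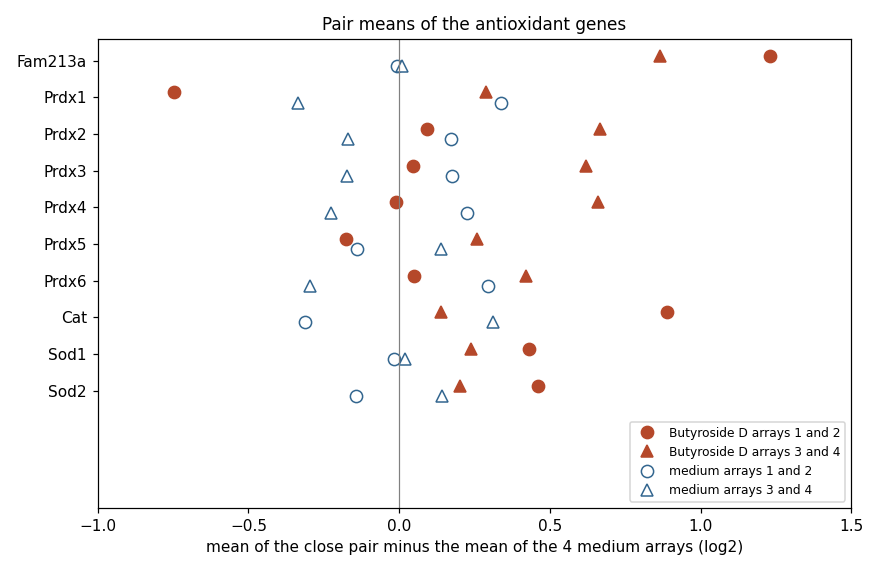
Mean log2 signal of each close pair of arrays minus the mean of the 4 medium arrays (horizontal axis, log2) for each gene. Filled symbols are Butyroside D pairs, open symbols medium pairs, circles arrays 1 and 2 and triangles arrays 3 and 4. In Prdx1 to Prdx6 the filled triangle lies right of the filled circle, and in Fam213a, Cat, Sod1 and Sod2 it lies left of it.

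Over the 10 members, 9 had a positive group difference, as did 51.5% of all transcript clusters and 53.3% of the 11567 at or above the background limit. The members' median was 0.33 and that of all transcript clusters 0.01 (log2). All 10 members were above the background limit. Taken by pair against the mean of the medium arrays, the median over members was 0.07 in Butyroside D arrays 1 and 2 and 0.35 in arrays 3 and 4. Over all transcript clusters these medians were 0.04 and -0.01. In 7 of 10 members both Butyroside D pairs were above the medium mean, against 28.1% of all transcript clusters. The exceptions were Prdx1, Prdx4 and Prdx5. In Butyroside D arrays 1 and 2, Prdx2, Prdx3 and Prdx6 were above the medium mean by only 0.09, 0.04 and 0.05. Fam213a, chosen by its higher signal in these same arrays, is included in all these counts and medians.

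The second deposited source gave another picture of the same enzymes. The authors' deposited table lists 1 average per group, with a fold change and an FDR-adjusted p from a test its headers do not name. Its medium averages lay within 0.00338 of a Tukey biweight mean of the 4 medium arrays for all 10 members, so both sources share these arrays. The Butyroside D average of the authors' deposited table lay outside the range of the 4 Butyroside D arrays for 6 of 10 members and for 42.0% of all transcript clusters, while 0 medium averages did (tolerance 0.005). The origin of those treated averages is not given in the sources used here.

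In the authors' deposited table Fam213a was not raised: its averages were 9.99 with Butyroside D and 10.12 in medium, a log2 difference of -0.13. The Butyroside D value is below all 4 Butyroside D arrays, the lowest of which is at 10.94. The other 9 members were all higher in the authors' deposited table, where 45.6% of all transcript clusters were, and the members' median was 0.64 against -0.03 for all.

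Prdx6 had averages of 9.47 with Butyroside D and 8.56 in medium in the authors' deposited table, a difference of 0.91 with an FDR of 0.0196. The averages of Sod1 were 11.88 with Butyroside D and 11.17 in medium in the authors' deposited table, 0.71 higher with an FDR of 0.0226. For Sod2 they were 9.98 with Butyroside D and 9.37 in medium in the authors' deposited table, 0.61 higher with an FDR of 0.0409. These were the 3 of 10 members with an FDR under 0.05 in the authors' deposited table, where 347 transcript clusters, or 1.56%, passed. For each of the 3, the Butyroside D average lay above all 4 Butyroside D arrays.

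Prdx1 averaged 17.28 with Butyroside D and 16.54 in medium in the authors' deposited table, 0.74 higher (FDR 0.116), although no Butyroside D array exceeded 16.86. Cat, also at 0.74 (FDR 0.150), and Prdx4, at 0.67 (FDR 0.158), were within the range of the arrays in the authors' deposited table. The smallest positive differences in the authors' deposited table were those of Prdx3 (0.49), Prdx5 (0.27) and Prdx2 (0.23), with FDR of 0.294, 0.375 and 0.687.

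**Figure D3:**
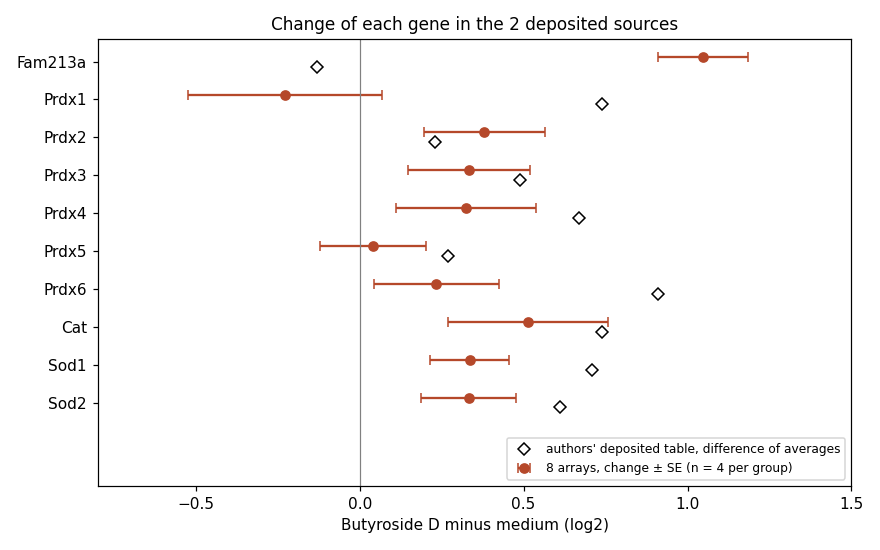
Difference of Butyroside D and medium on the log2 scale (horizontal axis) for each gene. Filled circles are the 8 arrays with their SE (n = 4 per group), open diamonds the difference of the averages in the authors' deposited table. Fam213a, at 1.05 in the arrays and -0.13 in the authors' deposited table, and Prdx1, at -0.23 and 0.74, differ in sign between the sources.

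Genes that work with these enzymes were read from 5 lists arranged by role, with 84 of 85 genes measured. Limma called 0 of the 84 in either direction, with 17 (20.2%) at an unadjusted p under 0.05, a share near the 17.9% of all transcript clusters. Of the 84, 48 (57.1%) were positive, with a median of 0.10 on the log2 scale. In 9 (10.7%) all Butyroside D arrays were above all medium arrays, against 6.98% of all transcript clusters, and in 6 (7.14%) all were below, against 5.93%. An FDR under 0.05 in the authors' deposited table was held by 2 of the 84, Srxn1 with a log2 difference of 2.65 and Nox4 with -1.01. For both, the Butyroside D average of that table lay outside the range of the 4 Butyroside D arrays. It was 9.12 for Srxn1, whose highest array was at 6.83, and 4.53 for Nox4, whose lowest was at 4.75.

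Among the genes that reduce or repair peroxiredoxins, 0 of 18 measured passed, 10 were positive and the median was 0.15 (log2). Thioredoxin Txn1 and thioredoxin reductase Txnrd1 serve the cytosol, and Txn2 and Txnrd2 the mitochondria. Differences were 0.23 ± 0.22 for Txn1, 0.21 ± 0.27 for Txnrd1, 0.48 ± 0.34 for Txn2 and 0.65 ± 0.17 for Txnrd2 (log2, SE, n = 4 per group). Txnrd2 alone among these 4 had no overlap between groups. Txn1 was lower in Butyroside D arrays 1 and 2 (12.10) than in arrays 3 and 4 (12.92), as the peroxiredoxins were, whereas Txn2 (11.45 and 10.25) and Txnrd1 (15.65 and 14.71) were higher in arrays 1 and 2, as Cat was. Medium pair means were 12.36 and 12.20 for Txn1, 10.79 and 9.95 for Txn2, and 15.29 and 14.66 for Txnrd1, arrays 1 and 2 first.

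Srxn1, the sulfiredoxin that restores overoxidised 2-Cys peroxiredoxins, had pair means of 6.74 in Butyroside D arrays 1 and 2 and 5.82 in arrays 3 and 4, against 7.01 and 5.93 in the corresponding medium pairs. Its array difference was -0.19 ± 0.34 (log2, SE, n = 4 per group), and its pairs differed by 0.92 with Butyroside D and by 1.09 in medium. Txnip, which binds and inhibits thioredoxin, was at 0.31 ± 0.19, the sestrin Sesn2 at 0.19 ± 0.28 and glutathione reductase Gsr at -0.23 ± 0.20 on the same scale.

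Other peroxidases and dismutase partners had 0 of 11 passing, 6 positive and a median of 0.03 (log2), and only 4 of the 11 were above the background limit. Gpx1, the cytosolic glutathione peroxidase, was at 0.08 ± 0.27, with 9.64 in Butyroside D arrays 1 and 2 and 10.72 in arrays 3 and 4, against 10.01 and 10.19 in the corresponding medium pairs. Gpx8, an endoplasmic reticulum form, was at 0.27 ± 0.33, with 8.90 in Butyroside D arrays 1 and 2 and 10.13 in arrays 3 and 4, against 9.55 and 8.93 in the corresponding medium pairs. Both were thus higher in Butyroside D arrays 3 and 4, as the peroxiredoxins were. Gpx4, which reduces lipid peroxides, was at -0.20 ± 0.15, and Ccs, the copper chaperone of Sod1, at 0.20 ± 0.21 (log2, SE, n = 4 per group). Extracellular Sod3 (4.32 with Butyroside D and 4.29 in medium) was below the background limit in both groups, and Fam213b, the relative of Fam213a, was at 4.81 with Butyroside D and 5.28 in medium.

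For sources of hydrogen peroxide, 0 of 25 passed, 16 were positive and the median was 0.11 (log2), with 11 of 25 above the background limit. Nox4, an NADPH oxidase, averaged 4.93 with Butyroside D and 5.54 in medium, with no overlap, but its Butyroside D mean is below the background limit. Ero1l, the oxidase of disulfide formation, was at 0.02 ± 0.12 (log2, SE, n = 4 per group). Genes of peroxisome import and division, which catalase depends on for its location, had 0 of 15 passing, 8 positive and a median of 0.09. The import receptor Pex5 was at -0.51 ± 0.15 with no overlap between groups, and its docking partner Pex14 at 0.31 ± 0.22 on the same scale. Pex16 and Pex19, which act in the import of peroxisomal membrane proteins and were picked out after their values were seen, had all Butyroside D arrays above all medium arrays. Pex16 was at 0.96 ± 0.15, the largest difference among the 84 related genes, with limma's adjusted p at 0.056, and Pex19 was at 0.56 ± 0.20 (log2, SE, n = 4 per group).

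Regulators of antioxidant genes had 0 of 15 passing, 8 positive and a median of 0.13 (log2). Nfe2l2, which encodes NRF2, averaged 8.54 in Butyroside D arrays 1 and 2 and 7.33 in arrays 3 and 4, against 7.75 and 6.79 in the corresponding medium pairs, a group difference of 0.67 ± 0.36. Keap1, which targets NRF2 for degradation, was at 0.24 ± 0.15, Bach1, a repressor of NRF2 targets, at 0.20 ± 0.11, Foxo3, a factor acting on Sod2 and Cat, at -0.09 ± 0.14, and the mitochondrial deacetylase Sirt3 at 0.16 ± 0.18 (log2, SE, n = 4 per group).

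**Figure D4:**
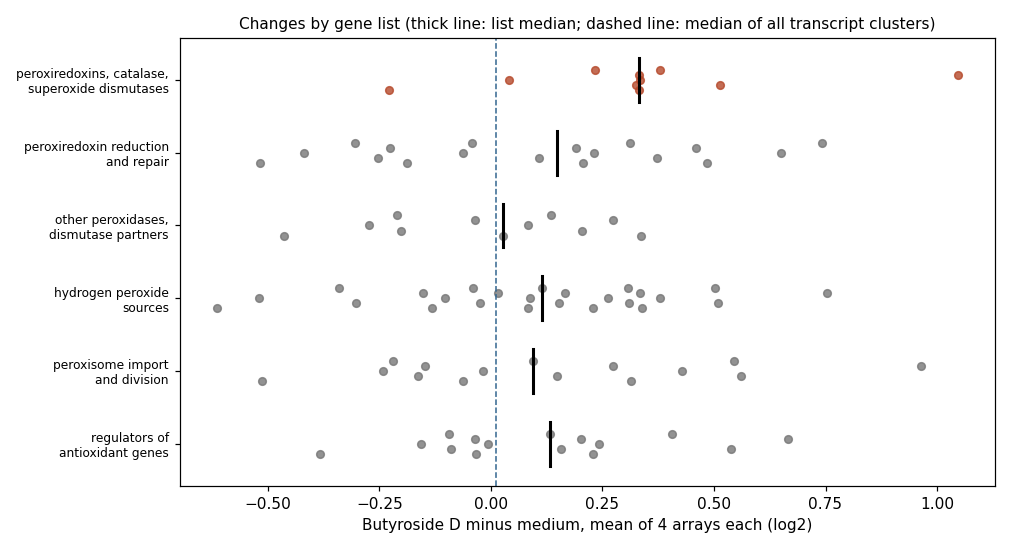
Difference of Butyroside D and medium in the arrays (horizontal axis, log2) for every measured gene of the 10-member set and of the 5 lists of related genes, 1 point per gene. Thick lines are list medians, from 0.03 to 0.33, and the dashed line is the median of all transcript clusters, 0.01. Vertical scatter within a list only separates the points.

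The signals most like that of Fam213a over the 8 arrays, by Pearson's r among transcript clusters with 1 symbol at or above the background limit, were those of Taf10 (0.997), Ecsit (0.991), Plxnb1 (0.989), Trmt6 (0.986) and Mtch2 (0.983). Each had all Butyroside D arrays above all medium arrays. Taf10 averaged 12.58 ± 0.15 with Butyroside D and 11.77 ± 0.04 in medium, and Mtch2 12.48 ± 0.28 with Butyroside D and 11.58 ± 0.09 in medium (SD, n = 4 each). After each group's mean was subtracted, the closest were Magea5 (0.995), Hs3st2 (0.995), Crat (0.994), Acot11 (0.994) and Cpt2 (0.991). This likeness leaves out the difference between groups: all Butyroside D arrays were below all medium arrays for Magea5 (-0.90) and Acot11 (-0.57) and above them for Crat (0.90), while Hs3st2 (0.63) and Cpt2 (0.20) overlapped between groups (log2 differences). The SD of Fam213a was 0.02 in medium against 0.22 with Butyroside D. After the group means were subtracted, the medium arrays thus had little weight in the coefficients. The 8 arrays form 4 close pairs and these genes were picked for their likeness, so the coefficients are descriptions with no test.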

How the data were processed

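The authors deposited log2 signals for each of the 8 Mouse Clariom S arrays, from 1.90 to 19.74 over the 22206 transcript clusters. RMA is named, beside Transcriptome Analysis Console and Affymetrix Expression Console, per the submitters' processing notes, which do not say what each did. No coordinates are given, because the genome build is not stated in the sources used here. The authors' deposited table gives log2 averages per group, a signed fold change (a score, since ratios below 1 are written as negative inverses, per the file headers), and p-values with FDR-adjusted p-values from a test the file headers do not name.

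From 28846 features, 6640 control features were set aside. Butyroside D minus medium was fitted on the other 22206 with limma 3.58.1 in R 4.3.3 (lmFit, eBayes, two-sided, 6 residual degrees of freedom, no block), with Benjamini-Hochberg adjustment over all of them and a threshold of 0.05. The same fit was checked on simulated data with independent arrays, so the check does not cover the close pairs. Symbols are those of the authors' table, and all 10 members were found in RefSeq's mouse gene table (GRCm38.p6), 1 of them as a synonym. The small number of arrays limits the precision.

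Arrays sharing a replicate number across groups deviated from their group means together only weakly (r of 0.07 to 0.08 across transcript clusters). For each number this r was slightly above the highest r with another number (0.05 to 0.07). The labels tie no number to a shared culture, so the numbers were not taken as pairing in the main fit. Members, lists, tests, alternatives and the naming rule were chosen with earlier results of these data known. The rule named all members, 24 set genes of the related lists and any other list gene that passed, and the 5 genes most like Fam213a before and after subtracting group means. A gene of that set is not reported here. Leaving out whole close pairs was added after seeing the data. Alternatives were other normalizations, a filter on dim transcript clusters, blocks, a prior trend, single arrays left out and the authors' table.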

Additional observations from a re-analysis of the deposited data

Results flagged for a closer look

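In the 20 groups of 4 arrays that the 10 members give, 1 array stood apart from the other 3: medium array 4 for Fam213a, with a gap of 0.866 of the group's range. Chance sets apart about 5% of such groups when the arrays are independent. The 4 medium arrays of this gene ranged from 10.12 to 10.16 on the log2 scale, and all lay below its 4 Butyroside D arrays.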

How the results depend on the processing

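Transcript clusters called numbered 26 in the fit as reported, 48 with arrays centred on their medians, 55 with dim ones left out, 347 in the authors' deposited table, and 0 with the replicate block, with the close pair as a random block (adjusted p of Fam213a 0.999) and with 1 mean per close pair. They numbered 0 to 5 without single arrays, 0 without medium arrays 3 and 4, 881 without Butyroside D arrays 1 and 2 and 5502 without Butyroside D arrays 3 and 4, fits that take near-repeat arrays as independent. Members called were 1 as reported, 3 in the authors' deposited table, 3 without Butyroside D arrays 3 and 4 (Fam213a, Cat and Sod1), and 0 with the replicate block, in both close pair fits, without either medium pair and in all 8 fits without single arrays. Related genes called were 0 as reported, 1 after centring and 1 after the filter (Pex16 in both), 2 in the authors' deposited table, 4 without Butyroside D arrays 1 and 2 (Txn1, Gpx1 and Pex16 higher, Rela lower) and 30 without Butyroside D arrays 3 and 4. Pex16 and Rela were named after their values were seen. Signs turned for Prdx1 (0.74 in the authors' deposited table, 0.11 without medium arrays 1 and 2, 0.29 without Butyroside D arrays 1 and 2), Prdx4 (-0.012 without Butyroside D arrays 3 and 4), Prdx5 (-0.039 to 0.14 without single arrays, -0.10 without medium arrays 1 and 2, -0.18 without Butyroside D arrays 3 and 4), Prdx6 (-0.061 without medium arrays 3 and 4) and Fam213a (-0.13 in the authors' deposited table). The other differences of the 10 members kept their direction under the alternatives run. The cause of these differences was not tested.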
